A study of Homo sapiens with 3 samples.

Results

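The genes described here encode the collagens, the laminins and the enzymes that hydroxylate collagen chains, measured in LNCaP, an established human prostate cancer line. They were taken by name among the protein-coding rows of the deposited count table. A row was a member if its GENCODE name was COL, digits, A and digits, or LAMA, LAMB or LAMC with 1 digit, or P4HA1, P4HA2, P4HA3, PLOD1, PLOD2 or PLOD3. This gave 62 genes of 58884 rows, made up of 44 collagen genes, 12 laminin genes and 6 enzyme genes. The 3 libraries came from LNCaP cells that had grown for 24 h in complete medium and then spent 72 h in medium of which 50% was conditioned medium (CM), with 2% fetal bovine serum. The CM was control-CM, PVAT-CM (marked normal in the labels) or PPAT-CM (marked tumor). The series title expands PPAT as periprostatic adipose tissue, the fat around the prostate, and PVAT is not expanded in the labels. The question was how RNA levels differ between the media. LNCaP is 1 cell line, and each medium had 1 library, so every difference below is between libraries and has no replicate check.

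Collagens are matrix proteins whose chains repeat a Gly-X-Y unit, which lets chains wind into a rope-like helix. Fibrillar types form cables, type IV forms the sheet of basement membranes, and type VI forms beaded filaments beside them. Laminins are cross-shaped trimers of an alpha, a beta and a gamma chain, and they organise the basement membrane on which prostate glands rest. Before secretion, prolyl 4-hydroxylase modifies prolines at the Y position, which makes the helix stable at body temperature. Lysyl hydroxylases modify lysines there, which later serve for cross-links and sugars.

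The repeat that defines the collagens and that the enzymes act on can be read in the coding sequence. Below are the first 10 repeats of the longest unbroken run in COL5A2, from its GENCODE 29 transcript on GRCh38, with each glycine codon in capitals. COL5A2 is shown because it was among the most lowered members.
COL5A2, codons 213 to 242: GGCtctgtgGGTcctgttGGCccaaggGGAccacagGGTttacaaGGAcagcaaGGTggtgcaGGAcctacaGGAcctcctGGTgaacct
In the longest coding transcript, COL5A2 had 339 such repeats in a row, COL1A1 338 and COL27A1 217, while COL6A1 and COL6A2 had 87 each. The Y codon coded for proline in 35.2% of COL5A2 repeats, 32.1% of COL6A1 repeats and 55.0% of COL4A5 repeats, counted in runs of at least 3. It coded for lysine in 7.20%, 16.5% and 14.0% of them.

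Promoter sequence is shown for 4 genes, which are not the 4 most changed members. COL9A3 (4.72-fold lower in PPAT-CM than in control-CM) and COL5A2 (3.75-fold) were lowered more than PLOD2 (3.13-fold) and are not shown. LAMA3 and PLOD2 were lower in the adipose media, COL27A1 was higher in PPAT-CM, and COL4A5 shares its upstream region with COL4A6. Each line gives the 250 bases before the start site in RefSeq on GRCh38.p14, 5′ to 3′ on the gene's strand. Capitals mark the AP-1 motif TGANTCA, or the hypoxia response element core ACGTG on either strand.
LAMA3, chr18:23872770-23873019, plus strand: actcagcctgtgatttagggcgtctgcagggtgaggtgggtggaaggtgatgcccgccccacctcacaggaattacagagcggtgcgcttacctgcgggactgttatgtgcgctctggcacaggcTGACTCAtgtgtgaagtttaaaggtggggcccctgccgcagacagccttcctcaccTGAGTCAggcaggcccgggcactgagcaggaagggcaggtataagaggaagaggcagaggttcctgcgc
PLOD2, chr3:146161185-146161434, minus strand: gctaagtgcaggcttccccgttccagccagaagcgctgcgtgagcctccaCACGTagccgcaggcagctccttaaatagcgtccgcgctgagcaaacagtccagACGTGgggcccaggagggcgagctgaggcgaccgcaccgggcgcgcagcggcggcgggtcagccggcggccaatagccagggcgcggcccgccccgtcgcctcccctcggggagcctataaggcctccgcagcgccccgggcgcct
COL27A1, chr9:114155287-114155536, plus strand: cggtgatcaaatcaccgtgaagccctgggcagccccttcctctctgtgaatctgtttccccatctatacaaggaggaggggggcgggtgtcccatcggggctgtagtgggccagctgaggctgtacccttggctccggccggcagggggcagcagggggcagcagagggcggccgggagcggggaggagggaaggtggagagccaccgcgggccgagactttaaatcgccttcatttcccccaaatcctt
COL4A5, chrX:108439588-108439837, plus strand: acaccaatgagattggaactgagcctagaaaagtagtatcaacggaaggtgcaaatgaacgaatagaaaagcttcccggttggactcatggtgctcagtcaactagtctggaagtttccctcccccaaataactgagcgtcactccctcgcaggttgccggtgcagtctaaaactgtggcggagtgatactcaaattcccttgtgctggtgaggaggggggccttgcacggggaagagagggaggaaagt
The LAMA3 window held 2 AP-1 matches, which began at -125 and -69, counted from the start site. The PLOD2 window held 2 matches of the hypoxia core, which began at -200 and -146. The COL27A1 and COL4A5 windows held neither motif. Among all 35116 RefSeq windows of 250 bases, 6.57% held the AP-1 motif and 18.5% the hypoxia core, which is also part of the E-box CACGTG. Of 60 windows belonging to 46 members, 3 held the AP-1 motif, in LAMA3, LAMB3 and COL10A1, and 9 held the hypoxia core, among them those of P4HA1, PLOD2, COL12A1, COL5A1 and COL11A2. A match describes letters only. The LAMA3 and PLOD2 windows lie inside the GENCODE spans of those genes, so they belong to a start downstream of the first one, and gene counts do not separate transcripts.

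Library totals lay between 14174241 and 16965584 counts. Scaling used TMM factors from edgeR, which set the bulk of genes equal between libraries, and scaled CPM below means CPM of the TMM-scaled total. A gene was called measured if its mean raw count over the 3 libraries was at least 50, which held for 12256 genes. Where no read was counted, the limit (3 counts) was 0.198 scaled CPM for control-CM, 0.210 for PVAT-CM and 0.163 for PPAT-CM. Mitochondrially encoded genes took 30.8%, 21.1% and 15.5% of the counts in the same order, and their part in the results was not tested. Folds are ratios of scaled counts, each with a 95% Clopper-Pearson interval (exact, conditional on the summed count) for counting error alone, and reads that carry no molecular identifier do not stand for separate molecules. In a bulk culture, fewer expressing cells and less RNA per cell cannot be told apart.

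Of the 62 genes 26 were measured, 16 collagens, 5 laminins and 5 enzymes. A member can pass the filter through the library where it is high, so the 26 do not stand for all 62. Summed over all 62 genes the level was 2861 scaled CPM with control-CM, 2134 with PVAT-CM and 1978 with PPAT-CM. Per kb of exon, COL6A1 led with 176 scaled CPM per kb in control-CM, 115 in each adipose medium. COL6A2 followed with 57.5 in control-CM, ahead of P4HA1 at 22.7, PLOD1 at 21.5 and LAMB2 at 19.7. COL12A1, LAMA3 and LAMA5 lay close together at 15.8, 15.5 and 15.4. At the low end of the measured genes were COL11A2 at 0.871, COL27A1 at 0.542 and COL5A1 at 0.466. Type VI chains thus dominated the collagen transcripts. COL6A1 and COL6A2 together made up 76.1% of the summed per-kb collagen level with control-CM, 75.1% with PVAT-CM and 75.5% with PPAT-CM, while that sum went from 306 to 204 and 199 scaled CPM per kb.

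**Figure D1:**
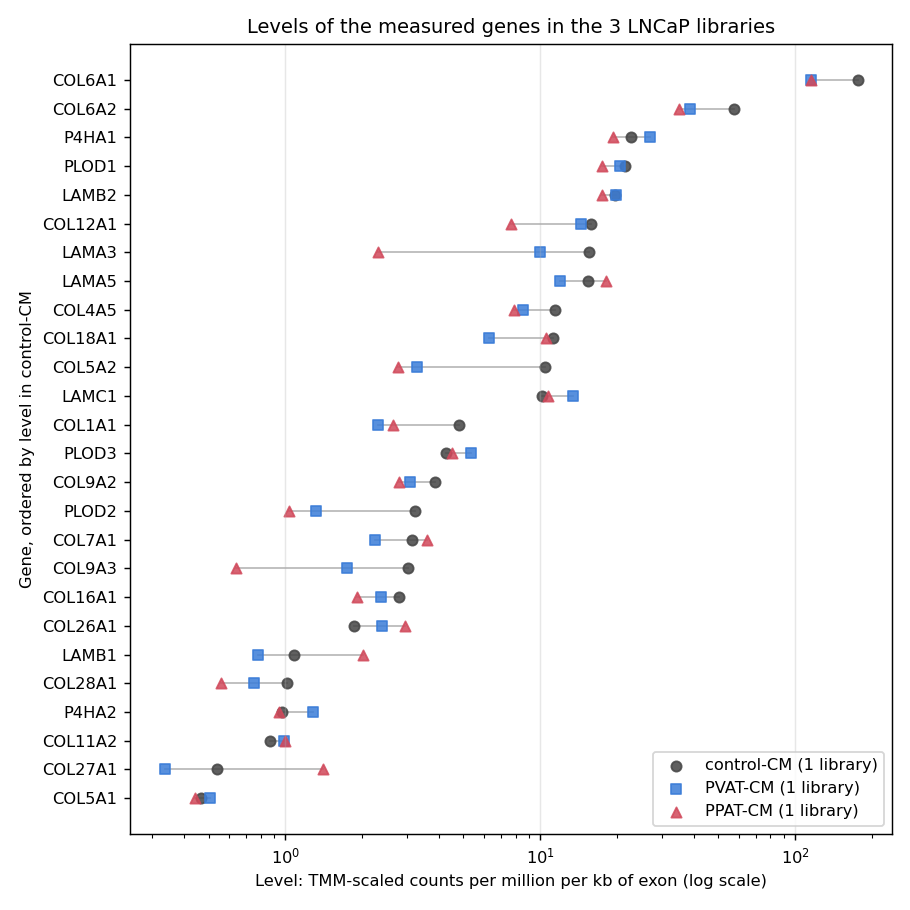
Level of each of the 26 measured genes (x axis, TMM-scaled CPM per kb of exon, log scale) in control-CM (circles), PVAT-CM (squares) and PPAT-CM (triangles), 1 library each, with a grey line from the lowest to the highest. The widest gaps belong to LAMA3, COL5A2, COL9A3, PLOD2 and COL27A1, while COL6A1 stays far above the rest in all 3 libraries.

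Collagen transcripts were mostly lower in both adipose media than in control-CM. In PPAT-CM against control-CM, 5 of the 26 measured members were at least 2-fold lower, LAMA3, COL9A3, COL5A2, PLOD2 and COL12A1, against 2.74% of all 12256 measured genes. COL27A1 alone was at least 2-fold higher, against 3.93% of all genes, so the higher side was at the background. Just inside the lower threshold was COL12A1, with a log2 ratio of -1.04, and just outside were COL1A1 and COL28A1, at -0.86 each. At 1.5-fold, 9 members were lower, against 8.71% of all genes, and 3 were higher, against 12.0%. The median log2 ratio of the members was -0.27, beside 0.03 over all measured genes and -0.01 over the 2625 measured protein-coding genes with at least 7.89 kb of exon, the members' own median length. Over the 16 measured collagens the median was -0.54, and 12 of them had a ratio below 0, beside 47.4% of all measured genes and 51.6% of the long protein-coding genes. COL5A1 and COL18A1 were among the 12 and turned above 0 with total counts.

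In PVAT-CM against control-CM, 3 members were at least 2-fold lower, COL5A2, PLOD2 and COL1A1, against 0.424% of all genes. None was at least 2-fold higher, against 0.465%. At 1.5-fold, 8 members were lower, against 3.49% of all genes, and none was higher, against 3.15%. The members' median was -0.39, beside 0.02 over all genes and -0.01 over the long protein-coding genes, and 13 of the 16 collagens were below 0, beside 46.9% of all genes and 51.5% of the long ones. COL12A1 was among the 13 and moved just above 0 with total counts, at a ratio of 1.00. This comparison and the previous one share the control-CM library, and the next one shares a library with each.

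Between the adipose media, COL27A1 and LAMB1 were at least 2-fold higher in PPAT-CM than in PVAT-CM, against 2.45% of all genes, and LAMA3 and COL9A3 were at least 2-fold lower, against 1.47%. At 1.5-fold, 5 members were higher, LAMA5, COL7A1 and COL18A1 in addition, against 8.56%, and 3 were lower, COL12A1 in addition, against 6.07%. The members' median was -0.19, beside 0.02 over all genes. Scaling by total counts instead of TMM moved the median of all genes to 0.27, 0.15 and 0.13 in the 3 comparisons. The members' median minus that of all genes was -0.29, -0.41 and -0.21 (log2) under either scaling. That sameness was fixed in advance, since a scaling shifts all log2 ratios of a comparison by nearly the same amount, and is no check. Counted from 0, 18 members were below and 8 above in PPAT-CM against control-CM with TMM, and 13 were on each side with total counts.

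**Figure D2:**
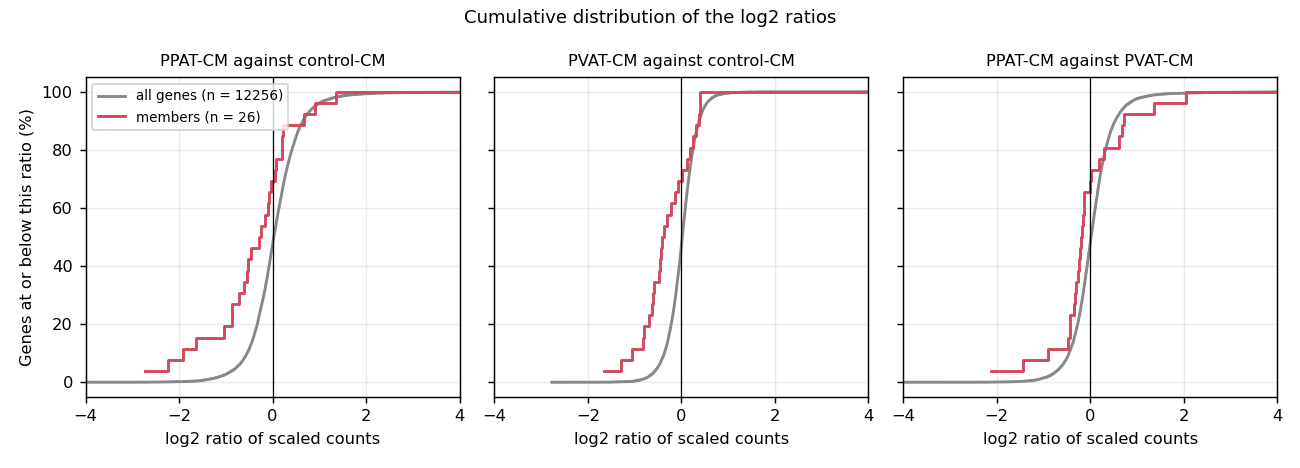
Percent of genes (y axis) at or below each log2 ratio of TMM-scaled counts (x axis) for all 12256 measured genes (grey) and the 26 measured members (red), in the 3 comparisons. The members' curve lies to the left of the grey curve around 0 in both comparisons with control-CM, with medians of -0.27 and -0.39 beside 0.03 and 0.02.

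Counted by library, 14 of the 26 members had their highest scaled level with control-CM, 6 with PVAT-CM and 6 with PPAT-CM. Over all measured genes the shares were 32.3%, 26.2% and 41.5%. Under total counts the members split into 11, 8 and 7, and all genes into 15.3%, 26.0% and 58.8%.

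**Figure D3:**
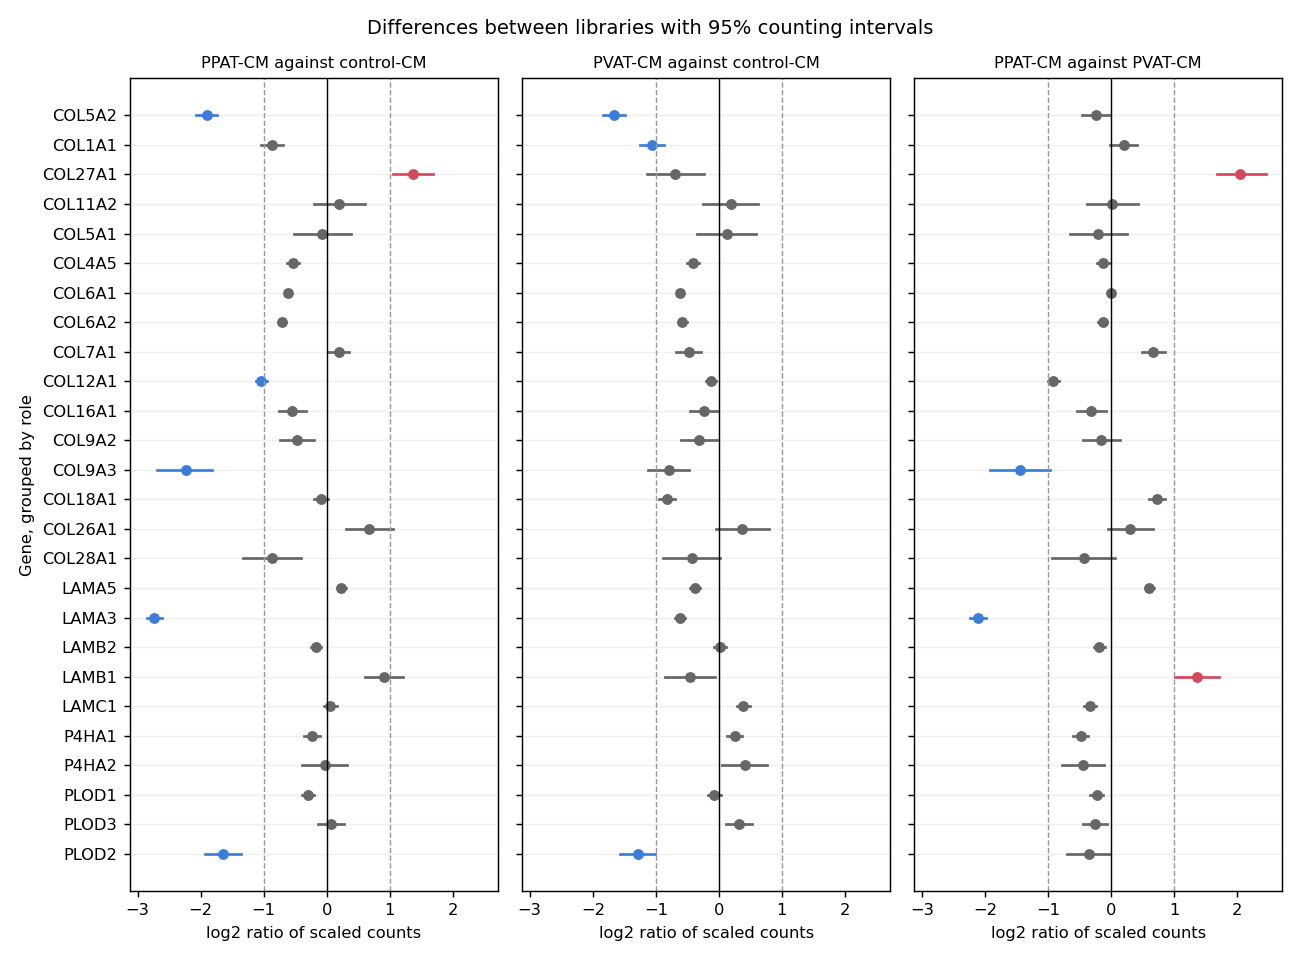
Log2 ratio of TMM-scaled counts (x axis) for the 26 measured genes, grouped by role (y axis), in the 3 comparisons, 1 library a medium. Lines are 95% counting intervals, dashed lines mark 2-fold, and blue and red mark members at least 2-fold lower or higher. COL5A2 and PLOD2 are blue in both comparisons with control-CM, and LAMA3 and COL9A3 in both that have PPAT-CM as the first library.

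Fibrillar collagens had 11 members, of which 5 were measured, and these moved in different directions. COL5A2, a chain of type V collagen that sets fibril diameter (ENSG00000204262, chromosome 2, 189031896 to 189225312, GRCh38), had 1173 counts with control-CM, 348 with PVAT-CM and 379 with PPAT-CM. It was 3.75-fold lower in PPAT-CM than in control-CM (3.34 to 4.22) and 3.17-fold lower in PVAT-CM (2.81 to 3.58), so both adipose libraries lay far below the control library and close to each other. Its partner COL5A1, the chain found in all common type V trimers, had 79, 81 and 91 counts, with intervals that included 1 in every comparison. Per kb, COL5A2 was 22.3 times COL5A1 in control-CM, 6.45 times in PVAT-CM and 6.25 times in PPAT-CM.

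COL1A1, the main chain of type I collagen (ENSG00000108821, chromosome 17, 50183289 to 50201632), had 718, 323 and 478 counts, in the order control-CM, PVAT-CM, PPAT-CM. It was 2.09-fold lower in PVAT-CM (1.83 to 2.39) and 1.82-fold lower in PPAT-CM (1.62 to 2.05). With total counts in place of TMM its PVAT-CM ratio was 0.525, which is inside 2-fold. COL1A2, which normally pairs with it, had 0 counts in all 3 libraries, so any COL1A2 level was at most 0.210 scaled CPM, while COL1A1 was at 22.7 or more. COL3A1, whose gene lies 19.1 kb from COL5A2, had 60, 38 and 49 counts, below the filter. COL27A1, a fibrillar chain with a shorter helix known from cartilage (ENSG00000196739, chromosome 9, 114155560 to 114312511), showed another order. It had 115 counts with control-CM, 67 with PVAT-CM and 359 with PPAT-CM, 2.58-fold higher in PPAT-CM than in control-CM (2.08 to 3.21) and 4.15-fold higher than in PVAT-CM (3.19 to 5.48). COL11A2, a minor fibril chain, had 89, 95 and 124 counts, with intervals that included 1 throughout.

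Type VI chains were lower in both adipose media by about the same ratio. COL6A1 (ENSG00000142156, chromosome 21, 45981737 to 46005050) had 14225 counts with control-CM, 8748 with PVAT-CM and 11302 with PPAT-CM. It was 1.53-fold lower in PPAT-CM than in control-CM, and the same value held for PVAT-CM. With total counts its ratio to control-CM was 0.774 in PPAT-CM and 0.717 in PVAT-CM. Between the adipose media its ratio was 1.00 (0.974 to 1.03) with TMM. It was 1.08 with total counts and 0.964 with upper quartile factors, both outside that interval. COL6A2, 93.0 kb away on the same strand, had 4701, 2957 and 3480 counts and was 1.64-fold lower in PPAT-CM (1.57 to 1.71) and 1.49-fold lower in PVAT-CM. The ratio of COL6A1 to COL6A2 per kb stayed near 3 (3.05, 2.98 and 3.27). COL6A3, the third chain of the classic type VI trimer, had 7, 5 and 12 counts, so that COL6A1 was 7467, 6429 and 3461 times higher per kb. These ratios rest on few COL6A3 reads, below the filter. The COL6A3 ratio of PPAT-CM to control-CM was 1.41, with an interval that included 1 (0.513 to 4.24).

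Of 6 type IV genes, which build the basement membrane sheet, COL4A5 alone was measured. It had 2055 counts with control-CM, 1453 with PVAT-CM and 1719 with PPAT-CM, and was 1.45-fold lower in PPAT-CM (1.36 to 1.55) and 1.33-fold lower in PVAT-CM (1.24 to 1.42). COL4A6 starts head to head with it, 346 bases away, and had 48, 38 and 47 counts. The shared upstream stretch printed above thus lay beside levels that differed 33.5-fold per kb in control-CM, 29.9-fold in PVAT-CM and 28.6-fold in PPAT-CM. COL4A1 and COL4A2, the chains common to most basement membranes, had at most 7 and 27 counts. COL4A3 had 19, 9 and 32 counts and COL4A4 6, 7 and 7.

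FACIT collagens, which decorate fibril surfaces, had 10 members with 4 measured, and all 4 were lower in PPAT-CM than in control-CM. COL12A1, which is long and flexible (ENSG00000111799, chromosome 6, 75084326 to 75206051), had 2991 counts with control-CM, 2576 with PVAT-CM and 1765 with PPAT-CM. It was 2.05-fold lower in PPAT-CM (1.94 to 2.18), and with total counts its ratio was 0.575, which is inside 2-fold. In PVAT-CM it was 1.09-fold lower (1.04 to 1.15). With total counts that ratio was 1.00, so no difference from control-CM was left. COL9A3 (ENSG00000092758, chromosome 20, 62816244 to 62841159) had 222, 120 and 57 counts, while its trimer partner COL9A2 had 246, 186 and 216. COL9A3 was 4.72-fold lower in PPAT-CM than in control-CM (3.52 to 6.43) and 1.74-fold lower in PVAT-CM (1.39 to 2.19). COL9A2 was 1.38-fold lower in PPAT-CM (1.15 to 1.67). The per-kb ratio of COL9A2 to COL9A3 was 1.27, 1.78 and 4.35, and COL9A1, the remaining type IX chain, had at most 3 counts. COL16A1 had 391, 313 and 325 counts and was 1.46-fold lower in PPAT-CM.

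Of the other 4 measured collagens, COL18A1 and COL7A1 differed between the adipose media, while the intervals of COL26A1 and COL28A1 for that comparison included 1. COL18A1, whose end fragment is endostatin, had 1445 counts with control-CM, 767 with PVAT-CM and 1643 with PPAT-CM. It was 1.77-fold lower in PVAT-CM than in control-CM, with an interval that included 1 for PPAT-CM (0.873 to 1.01 as a ratio). SLC19A1 on the opposite strand overlaps 16.4% of its exon length, and had 349, 432 and 574 counts. COL7A1, which forms the anchoring fibrils under epithelia, had 525, 354 and 728 counts and was 1.59-fold higher in PPAT-CM than in PVAT-CM (1.40 to 1.82). COL26A1 had 89, 108 and 172 counts and was 1.59-fold higher in PPAT-CM than in control-CM (1.23 to 2.08). COL28A1 had 102, 71 and 68 counts and was 1.82-fold lower in PPAT-CM (1.32 to 2.51).

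LAMA3 and LAMA5 stood at nearly equal per-kb levels in control-CM, and LAMA3 was far lower in PPAT-CM. LAMA3, the alpha chain of the epithelial laminin that anchors cells through hemidesmosomes (ENSG00000053747, chromosome 18, 23689443 to 23956222), had 3443 counts with control-CM, 2103 with PVAT-CM and 626 with PPAT-CM. Relative to control-CM it was 6.67-fold lower in PPAT-CM (6.12 to 7.27) and 1.54-fold lower in PVAT-CM (1.46 to 1.63), and it was 4.33-fold below its PVAT-CM level in PPAT-CM (3.96 to 4.74). The 3 libraries thus stood in a clear order for LAMA3. LAMA5, the broad alpha chain of epithelial basement membranes (ENSG00000130702, chromosome 20, 62307955 to 62367312), had 3344, 2421 and 4752 counts. It was 1.30-fold lower in PVAT-CM than in control-CM and 1.17-fold higher in PPAT-CM (1.12 to 1.23). Per kb, LAMA3 made up 50.0% of the summed laminin alpha level with control-CM, 45.7% with PVAT-CM and 11.4% with PPAT-CM, and nearly all of the remainder was LAMA5. These shares depend on the exon length used, which merged all transcripts of a gene. Which LAMA3 transcripts were present was not tested. The alpha sum itself was 30.9, 22.0 and 20.4 scaled CPM per kb. LAMA1, LAMA2 and LAMA4 had at most 9 counts in any library.

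LAMB2 was the leading beta chain, at 94.5% of the summed per-kb beta level in control-CM, and had 2054, 1951 and 2213 counts. Its ratio to control-CM was 1.01 in PVAT-CM (0.949 to 1.08) and 0.889 in PPAT-CM (0.837 to 0.944), the latter turning above 1 with total counts and the former below 1 with upper quartile factors. LAMB1, the beta chain of most embryonic laminins (ENSG00000091136, chromosome 7, 107923799 to 108003255), had 133 counts with control-CM, 91 with PVAT-CM and 302 with PPAT-CM. It was 1.87-fold higher in PPAT-CM than in control-CM (1.52 to 2.31) and 2.57-fold higher than in PVAT-CM (2.03 to 3.29). With total counts it also passed 2-fold against control-CM, at 2.21. Its share of the summed per-kb beta level was 5.16%, 3.75% and 10.1%. LAMC1, the common gamma chain, had 1302, 1606 and 1647 counts and was 1.31-fold higher in PVAT-CM (1.22 to 1.41), with an interval that included 1 in PPAT-CM. LAMB3, a beta chain that joins LAMA3 in its epithelial trimer, had 3, 6 and 30 counts, a ratio of 8.25 in PPAT-CM against control-CM (2.57 to 42.2), the opposite direction to LAMA3. Thus LAMA3 was abundant in control-CM while LAMB3 was at the floor of 3 counts.

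**Figure D4:**
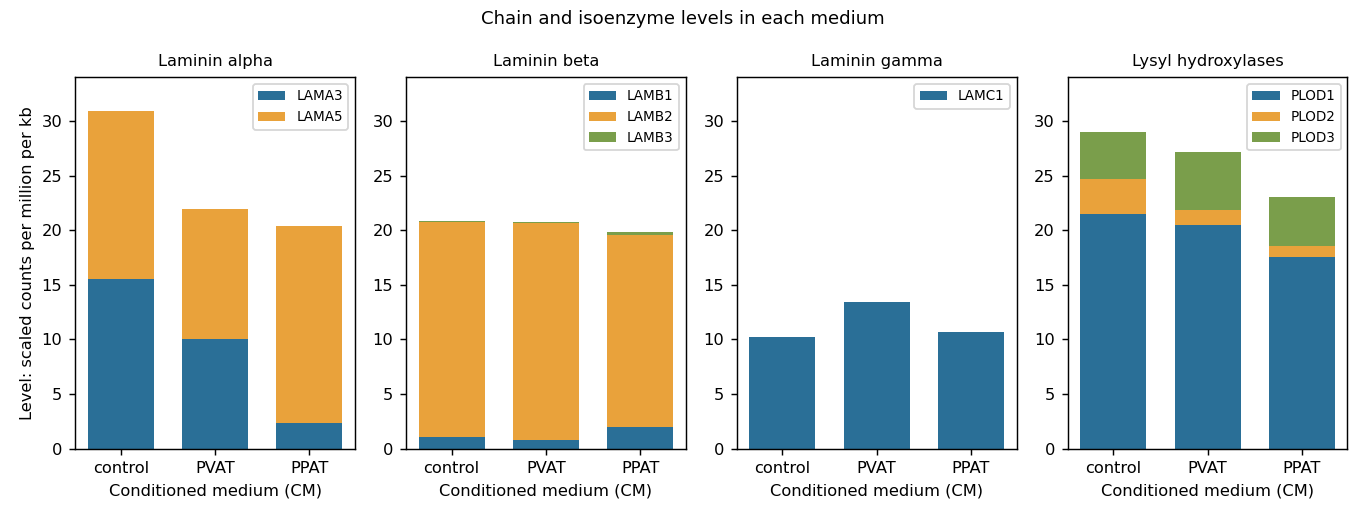
Stacked bars of the level (y axis, TMM-scaled CPM per kb of exon, starting at 0) of laminin alpha, beta and gamma chains and of lysyl hydroxylases in the 3 media, 1 library each. Chains with fewer than 10 counts in every library are not drawn. The LAMA3 part of the alpha bar shrinks to 11.4% in PPAT-CM, and PLOD2 is the smallest part of the lysyl hydroxylase bar in all 3 media.

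Among the modifying enzymes PLOD2 stood lower in both adipose media while its relatives differed little. PLOD2, the lysyl hydroxylase that acts on the collagen ends used for cross-links (ENSG00000152952, chromosome 3, 146069440 to 146163653), had 374 counts with control-CM, 144 with PVAT-CM and 145 with PPAT-CM. It was 3.13-fold lower in PPAT-CM than in control-CM (2.57 to 3.81) and 2.44-fold lower in PVAT-CM (2.01 to 2.98). PLOD1, which acts on the helix, had 1737, 1552 and 1711 counts. It was 1.23-fold lower in PPAT-CM, and its interval for PVAT-CM included 1. PLOD3, which also adds sugars, had 368, 432 and 468 counts and was 1.25-fold higher in PVAT-CM (1.08 to 1.44), with an interval that included 1 in PPAT-CM. ZNHIT1 on the opposite strand overlaps 7.56% of the PLOD3 exons and had 1960, 1953 and 2208 counts. PLOD2 made up 11.1% of the summed per-kb lysyl hydroxylase level with control-CM, 4.87% with PVAT-CM and 4.48% with PPAT-CM. P4HA1, the main catalytic subunit of prolyl 4-hydroxylase, had 1065, 1188 and 1096 counts. It was 1.19-fold higher in PVAT-CM (1.09 to 1.29) and 1.18-fold lower in PPAT-CM. With total counts its PPAT-CM ratio was 1.00, so no difference from control-CM was left there. P4HA2 had 125, 156 and 148 counts and P4HA3 at most 6.

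Below the filter were 36 members. Of these 5 had no count in any library, COL1A2, COL6A5, COL8A1, COL15A1 and COL19A1, and 23 more had at most 15 counts in any library. The other 8 reached 20 counts in at least 1 library, namely COL3A1, COL4A2, COL4A3, COL4A6, COL22A1, COL23A1, COL24A1 and LAMB3. COL22A1, a FACIT collagen of tissue junctions, had 0 counts with control-CM, 2 with PVAT-CM and 36 with PPAT-CM, at least 9.90-fold higher in PPAT-CM than in control-CM against a floor of 3 counts per library. COL24A1 had 51, 23 and 33 counts and was 1.87-fold lower in PPAT-CM (1.19 to 3.00). The transmembrane collagen COL23A1 had 28, 10 and 19 counts. COL13A1, another transmembrane type, was chosen for mention after its values were seen, with 2, 2 and 15 counts.

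Other genes of the pathway did not share one direction. The counts of list genes past 2-fold in PPAT-CM against control-CM stand beside 3.93% of all measured genes higher and 2.74% lower. Of 31 genes for collagen folding, secretion and cross-linking 20 were measured, with 0 at least 2-fold higher and 1 lower in PPAT-CM than in control-CM, and a median log2 ratio of 0.07. That 1 gene was TMEM38B, an endoplasmic reticulum channel needed for collagen synthesis, with 1995, 1879 and 1162 counts, 2.08-fold lower (1.94 to 2.24). MIA3, a cargo receptor for procollagen export, was 1.73-fold lower (1.64 to 1.82), and the coat protein SEC23A was 1.66-fold higher (1.52 to 1.81). Of 6 measured basement membrane partners of 21 listed, 2 were at least 2-fold higher, VWA1 at 2.89-fold (2.74 to 3.05) and the netrin NTN4 at 2.28-fold (1.77 to 2.96). FRAS1 was 1.71-fold lower (1.43 to 2.05). In PVAT-CM against control-CM neither list had a gene past 2-fold.

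Of 19 receptors 13 were measured, of which 1 was past 2-fold in each direction in PPAT-CM against control-CM, with a median of 0.28. ITGB4, the integrin chain that binds the LAMA3 laminin in hemidesmosomes, had 141, 68 and 65 counts and was 2.63-fold lower in PPAT-CM (1.95 to 3.58) and 1.95-fold lower in PVAT-CM (1.45 to 2.64). DDR2, a collagen receptor kinase, had 40, 66 and 101 counts. It was 2.08-fold higher in PPAT-CM (1.43 to 3.08) and 1.76-fold higher in PVAT-CM (1.17 to 2.67). DAG1, the laminin receptor dystroglycan, was 1.51-fold higher (1.39 to 1.64). Of 24 proteases and inhibitors 11 were measured, with a median of -0.04. MMP7, or matrilysin, had 7, 6 and 145 counts and was 17.1-fold higher in PPAT-CM than in control-CM (8.08 to 43.3). It passed the filter only through its PPAT-CM count, so being measured and being high there are not separate facts. Of 22 other matrix glycoproteins 7 were measured, with a median of -0.25, and 1 was past 2-fold. That was fibronectin (FN1), with 1628, 2501 and 9549 counts, 4.84-fold higher in PPAT-CM than in control-CM (4.59 to 5.10). In PVAT-CM it was 1.63-fold higher than in control-CM (1.53 to 1.74).

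The cultures carried the markers of the labelled cell line. All 13 luminal prostate markers were measured, with summed counts between 69578 and 74009. Of 13 fibroblast markers 3 are members, and the other 10 together had 19 counts with control-CM, 10 with PVAT-CM and 8 with PPAT-CM, with PDGFRA, DCN, THY1, FAP and TCF21 at 0 throughout. Of 7 basal epithelial markers DST alone was measured, and KRT5, KRT17 and TP63 were at 0. The basal list summed to 230, 199 and 321 counts. Of its members KRT14 had 38, 20 and 2 counts, DST 188, 179 and 301, S100A2 4, 0 and 16, and KRT15 0, 0 and 2. Their part in the LAMA3 result was not tested. Smooth muscle markers summed to 101, 90 and 161 counts and endothelial markers to 36, 23 and 43. Leukocyte markers summed to 16, 20 and 41. Adipocyte markers summed to 13, 27 and 91, nearly all from PLIN1, with ADIPOQ, LEP, LPL and FABP4 at 0.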

How the data were processed

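RNA sequencing counts of 3 LNCaP libraries were used. The authors deposited raw counts, whole numbers for each Ensembl gene. FastQC, Trimmomatic, HISAT2, featureCounts and edgeR on GRCh38 are named, per the submitters' processing notes. For versions, annotation and strand setting: not given in the sources used here. Overlapping genes on opposite strands may share reads. Names, exon lengths and coordinates came from GENCODE 29. TMM factors (edgeR 4.0.16, R 4.3.3) were 0.917, 1.01 and 1.08 for control-CM, PVAT-CM and PPAT-CM. Log2 ratios used a pseudocount of 0.5 scaled counts, and the thresholds were applied to them. No test was run, since each medium had 1 library. The members and lists were chosen with earlier results of these data known. All measured members were named, lower ones singly from 20 counts, and up to 3 genes of each other list past 1.5-fold. Some items are not reported here. The calculations were tested on simulated data. Python 3.11.15, numpy 2.4.6, pandas 2.3.3 and scipy 1.17.1 were used. Alternatives were DESeq2 1.42.0 size factors, total counts, upper quartile factors, TMM without mitochondrial genes, other filters and thresholds, and a pseudocount of 5.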

Additional observations from a re-analysis of the deposited data

How the results depend on the processing

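The number of members past 2-fold depended mainly on the count filter. The main values were 1 higher and 5 lower for PPAT-CM against control-CM, 0 and 3 for PVAT-CM against control-CM, and 2 and 2 for PPAT-CM against PVAT-CM. With no filter they were 10 and 12, 6 and 12, and 11 and 10, since genes with a few counts then enter. With a mean count of at least 10 they were 3 higher in the first comparison, 1 higher and 5 lower in the second, and 5 higher in the third. With a mean count of at least 200 they were 0 higher and 4 lower in the first, and 0 higher and 1 lower in the third. A threshold of 1.5-fold gave 3 and 9 in the first, 8 lower in the second and 5 higher in the third. Total counts without TMM gave 2 higher and 4 lower in the first, and 2 lower in the second. DESeq2 size factors, upper quartile factors, TMM without mitochondrial genes, a pseudocount of 5 and the demand that the counting interval exclude 1 left all 6 counts within 1.5 times of these values. No member past 2-fold changed direction under any of the 4 other scalings. With total counts, 35 of 78 member folds left their counting interval, and with upper quartile factors 4 of 78. The members' median for PPAT-CM against control-CM was -0.03 with total counts and -0.50 with a mean count of at least 200, beside -0.27. For PPAT-CM against PVAT-CM it was -0.00 with no filter, beside -0.19. No paired analysis was possible because each medium had 1 library and no test was run. Counting error limits the members under 50 counts, and the spread between cultures was not measured.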
